A study of Homo sapiens with 3 samples.

Results

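The numbered LINC rows are the genes whose name is LINC followed only by digits, the provisional naming scheme for long intergenic noncoding RNAs. They were taken by name alone from 3 gene tables of RNA-seq libraries, on references without a _ in their name. This gave 1902 rows with 1899 distinct names, of 39320 rows on these references. A further 104 rows with such names lie on references with a _ in their name, and every one of them was listed at 0 in every library. The libraries, replicates 1, 2 and 3, form 1 group, described by the labels as HepG2 with genotype WT. HepG2 is an established human liver cancer cell line, and no treatment, transgene or second condition is given, so the comparisons below are between rows within a library. Nothing in the labels says whether the replicates came from separate cultures, so the errors and p-values measure only the spread between these libraries, which may be technical.

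Long noncoding RNAs are transcribed, spliced and often polyadenylated like messenger RNAs, but they carry no long reading frame. Most are made at low levels and in few cell types, and many are named by number until a function is found. A part of them start beside the promoter of a protein-coding gene and run away from it on the other strand, some host small RNAs in their introns, and others lie alone. In liver and in liver cancer, individual members are known as markers of hepatocytes or as RNAs that increase in tumours.

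The unit used is TPM, a measure of transcript level, which the authors scaled for gene length and to the same total in each library. A row with at least 1 TPM in a library is called expressed there. The tables hold no read counts, so the depth is unknown. As a stand-in, the ratio of coverage to FPKM reached a maximum that was, relative to replicate 3, 1.16 times higher in replicate 1 and 1.12 times in replicate 2. The labelled cell type was checked with 15 genes for proteins that hepatocytes secrete or carry. Of these, 13 were below 1 TPM in every library, and 10 of them, among them ALB and APOA1, were listed at 0 in all 3. The summed level of the 15 was between 33.6 and 35.3 TPM per library, from RBP4 and VTN. KRT8 and KRT18, keratins of simple epithelia, were expressed in all 3 libraries, while EPCAM was below 1 TPM in each and CDH1 lay between 0.980 and 1.05 TPM. Of 4 mesenchymal genes, VIM and CDH2 were expressed in all 3 libraries, SPARC was listed at 0 in each and COL1A2 was at most 0.0457 TPM. A list of 4 blood genes summed to between 1.21 and 1.48 TPM. Except for RBP4 and VTN, the hepatocyte genes of the list are thus at or near 0 in libraries labelled HepG2. APOB was listed at 0 in all 3 libraries, and AFP was at most 0.0248 TPM. The check does not bear out the labelled cell type, and the identity of the cells was not tested further. Each value below belongs to the libraries so labelled and is not shown to hold for HepG2 in general.

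Promoters are shown for 5 rows that stand for the patterns described below, and for 1 row of a liver list that was listed at 0. They are taken from RefSeq for GRCh38.p14 and span 250 bases before to 50 bases after the annotated start, on the transcribed strand. Capitals mark 4 motifs in either orientation. These are the TATA box in the form TATAAA, the box named after its letters CCAAT, the GC box bound by SP1 in the form GGGCGG, and TGACG, which is a part of the cAMP response element. LINC00473 had the highest TPM of all numbered LINC rows. LINC01578 and LINC00963 are highly expressed rows with CpG-rich promoters. LINC01133 is a highly expressed row with a CpG-poor promoter. LINC01089 starts head to head with a coding gene, and LINC01093, a liver RNA, had no signal in any library.
LINC00473, chr6:165987990-165988289, minus strand: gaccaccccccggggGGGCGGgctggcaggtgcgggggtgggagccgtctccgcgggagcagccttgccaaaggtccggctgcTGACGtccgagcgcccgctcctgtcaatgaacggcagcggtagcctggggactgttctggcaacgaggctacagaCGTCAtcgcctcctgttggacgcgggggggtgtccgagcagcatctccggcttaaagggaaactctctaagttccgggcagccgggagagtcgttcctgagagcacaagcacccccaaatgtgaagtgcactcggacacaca
LINC01578, chr15:92882593-92882892, plus strand: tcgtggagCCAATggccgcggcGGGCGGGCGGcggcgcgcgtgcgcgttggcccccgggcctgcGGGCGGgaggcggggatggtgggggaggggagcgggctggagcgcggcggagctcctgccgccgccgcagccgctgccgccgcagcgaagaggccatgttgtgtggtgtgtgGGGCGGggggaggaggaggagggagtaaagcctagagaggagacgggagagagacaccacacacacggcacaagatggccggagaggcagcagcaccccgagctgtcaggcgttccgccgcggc
LINC00963, chr9:129488410-129488709, plus strand: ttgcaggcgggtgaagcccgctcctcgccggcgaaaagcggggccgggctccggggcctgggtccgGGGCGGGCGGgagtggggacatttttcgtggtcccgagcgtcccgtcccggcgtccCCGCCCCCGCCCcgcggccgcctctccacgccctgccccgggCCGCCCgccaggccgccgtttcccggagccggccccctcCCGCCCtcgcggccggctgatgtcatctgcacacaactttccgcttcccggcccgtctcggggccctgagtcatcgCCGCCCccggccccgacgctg
LINC01133, chr1:159960974-159961273, plus strand: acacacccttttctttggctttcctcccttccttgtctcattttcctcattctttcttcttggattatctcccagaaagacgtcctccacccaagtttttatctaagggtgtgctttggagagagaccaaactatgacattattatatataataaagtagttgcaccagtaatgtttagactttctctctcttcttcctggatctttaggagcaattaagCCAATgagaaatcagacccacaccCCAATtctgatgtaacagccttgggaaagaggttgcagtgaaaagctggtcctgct
LINC01089, chr12:121802897-121803196, minus strand: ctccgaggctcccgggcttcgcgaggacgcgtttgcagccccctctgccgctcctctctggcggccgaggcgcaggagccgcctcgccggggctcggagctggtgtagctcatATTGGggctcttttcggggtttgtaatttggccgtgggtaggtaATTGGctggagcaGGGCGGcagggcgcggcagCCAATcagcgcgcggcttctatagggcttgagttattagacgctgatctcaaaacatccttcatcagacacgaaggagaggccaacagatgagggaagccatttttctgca
LINC01093, chr4:184899412-184899711, minus strand: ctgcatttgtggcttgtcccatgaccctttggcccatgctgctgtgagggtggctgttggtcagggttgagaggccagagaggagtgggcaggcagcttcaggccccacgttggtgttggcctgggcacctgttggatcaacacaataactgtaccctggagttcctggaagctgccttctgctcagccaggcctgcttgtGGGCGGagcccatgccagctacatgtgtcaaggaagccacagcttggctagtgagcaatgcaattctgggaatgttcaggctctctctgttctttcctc

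In all of these, the RefSeq start lies 0 bp from the start of the deposited row. The LINC00473 promoter holds a GGGCGG and 2 copies of TGACG, of which the first begins 167 bases before the start and the other, as CGTCA, 92 bases before it. The full cAMP response element, TGACGTCA, is not in it. The row of PDE10A, a gene on the same strand, also starts inside this window, so the motifs cannot be assigned to LINC00473 alone. The LINC01578 promoter holds 4 copies of GGGCGG and 36 CpG, and that of LINC00963 holds 43 CpG. That of LINC01133 holds 1 CpG and 2 copies of CCAAT, and that of LINC01093 holds 2 CpG. A match of these letters is a description of the window and does not show that a factor binds there.

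Most numbered LINC rows had no signal in these libraries. At least 1 TPM was reached in all 3 libraries by 117 of 1902 rows, or 6.15%, while the same limit was passed by 33.8% of all rows and 35.3% of the 37418 rows named outside the LINC set. Another 32 rows were expressed in some libraries but not in all, 19 of them in 1 library and 13 in 2. A total of 1397 LINC rows, or 73.4%, were listed at 0 in every library, against 40.7% of all rows, and 295 (15.5%) were above 0 in every library, against 47.2%. At least 10 TPM in every library was reached by 19 LINC rows (0.999%), against 20.7% of all rows.

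By library, 137 LINC rows were expressed in replicate 1, 129 in replicate 2 and 130 in replicate 3. This was 6.94% ± 0.229 (SD, n = 3) of the LINC rows, against 36.4% ± 0.109 of the outside rows. The difference was -29.4 ± 0.218 percentage points, with the LINC share lower in 3 of 3 libraries (two-sided exact sign-flip permutation test, p = 0.25). With 3 libraries, 0.25 is the smallest p that this test can give, so no comparison here can pass a threshold of 0.05. The class most alike is the 1144 rows whose name ends in -AS and a number, noncoding RNAs antisense to a named gene. Of these, 19.6% passed 1 TPM in all 3 libraries. In a library, 22.1% ± 0.101 were expressed, and the LINC share was lower by 15.1 ± 0.187 percentage points in 3 of 3 libraries (exact sign-flip permutation test, p = 0.25). Both differences are many times the spread between the libraries.

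**Figure D1:**
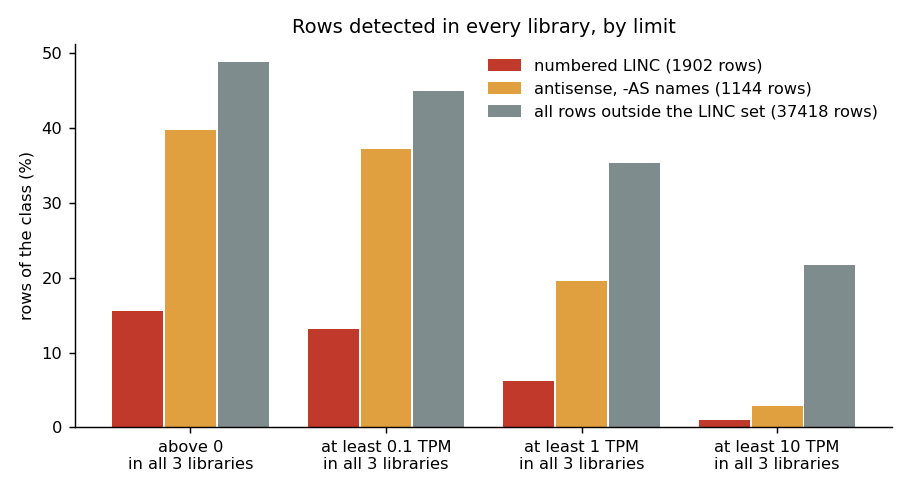
Share of rows (%, vertical axis) that pass each of 4 limits in all 3 libraries, for numbered LINC rows, antisense rows and all rows outside the LINC set. At every limit the LINC bar is the lowest, falling from 15.5% above 0 to 0.999% at 10 TPM.

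The summed level of the LINC rows was 1001, 969 and 953 TPM in replicates 1, 2 and 3. The mean of 975 ± 24.4 TPM (SD, n = 3) was 0.0975% of all TPM. The 117 rows expressed in all libraries held 90.4% of this sum, and the 10 highest rows held 40.8%. Among expressed rows, the median level in a library was 3.03 ± 0.0639 TPM for LINC rows, 2.81 ± 0.0847 TPM for antisense rows and 15.6 ± 0.445 TPM for outside rows. The LINC median was above the antisense median in 3 of 3 libraries, although a smaller share of LINC rows was expressed. In these bulk libraries, a low level in all cells and a high level in few cells cannot be told apart.

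LINC00473, an RNA known to be induced by cAMP signalling, reached 107, 91.2 and 88.8 TPM in replicates 1, 2 and 3. Its mean of 95.8 ± 10.1 TPM (SD, n = 3) was the highest TPM of the LINC rows and 9.82% of their summed TPM. LINC00958, known from bladder and liver cancer, followed with 68.9, 61.6 and 58.0 TPM in replicates 1, 2 and 3. LINC01578, now named CHASERR and known to hold down the level of its neighbour CHD2, had 63.5, 56.7 and 49.4 TPM. LINC00473 was above LINC00958 in every library, and LINC00958 was above LINC01578 in every library. The ranges of LINC00958 and LINC01578 over the libraries overlapped. LINC01133 had 43.9, 49.3 and 51.7 TPM, and its range overlapped that of LINC01578.

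LINC01278, on the X chromosome, came next with 27.4, 33.2 and 28.4 TPM. LINC00963, an RNA described in prostate cancer, had 26.8, 25.1 and 25.5 TPM and a mean of 25.8 TPM. LINC01508 had 21.8 ± 1.80 TPM, LINC00467 had 20.5 ± 2.33 TPM and LINC01836 had 19.0 ± 0.825 TPM (SD, n = 3 each). The remaining 11 of the 20 highest rows lay between 10.5 and 17.3 TPM on average. These were LINC00942, LINC01116, LINC01123, LINC01186, LINC01089, LINC01184, LINC00667, LINC02001, LINC00476, LINC00857 and LINC00707. The 20 highest rows of replicates 1 and 3 were the same 20, and replicate 2 shared 19 with each of them.

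**Figure D2:**
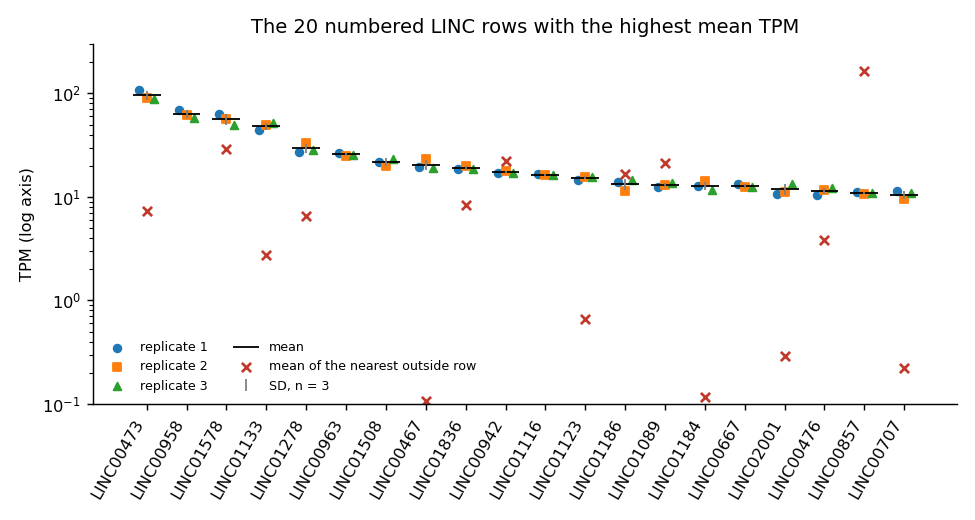
TPM of the 20 numbered LINC rows with the highest mean (log axis), with 1 symbol per replicate, the mean as a line, the SD as a bar (n = 3), and the mean of the nearest outside row as a cross where it is above 0.1 TPM. LINC00473 is highest at 95.8 TPM, and the cross lies above the LINC row in LINC00942, LINC01186, LINC01089 and LINC00857.

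In GRCh38, the LINC00473 row spans chr6:165924048-165988039 on the minus strand and lies whole inside PDE10A, a phosphodiesterase gene that breaks down cAMP and cGMP and runs on the same strand. The PDE10A row starts at base 165988115, inside the promoter window printed for LINC00473. PDE10A had 7.42, 7.27 and 7.37 TPM in replicates 1, 2 and 3. On the log2(TPM + 1) scale LINC00473 was above it by 3.53 ± 0.14 (SD, n = 3), while by coverage in place of TPM the log2 difference was 1.64. LINC00958 (chr11:12979534-12989548, minus strand) has no outside row within 5 kb, and its nearest, LOC105376557 at 7498 bp, had 0.016 TPM in replicate 2 and 0 in the others. LINC01578 (chr15:92882843-92898747, plus strand) ends 1573 bp before CHD2, a chromatin remodeller gene on the same strand, which had 29.3, 29.3 and 28.9 TPM. LINC01578 was higher than CHD2 by 0.92 ± 0.17 on the log2(TPM + 1) scale, in 3 of 3 libraries. LINC01133 (chr1:159961224-159979086, plus strand) lies whole within SLAMF9, an immune receptor gene on the other strand with 2.65, 2.41 and 3.12 TPM. The strand setting of the counting is not given in the sources used here, so reads of rows that overlap on opposite strands may have been assigned to either.

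Over the 20 highest rows, 17 could be compared with their nearest outside row and the other 3, LINC00963, LINC01508 and LINC00667, lie nearest to a row listed at 0 in every library. The LINC row was the higher in all 3 libraries in 13 of the 17 and the lower in all 3 in 4, each with p = 0.25, and 0.25 after Benjamini-Hochberg adjustment over 17 rows, in the exact sign-flip permutation test. The 4 were LINC00942 beside ERC1, a scaffold protein gene, LINC01186 beside KRBOX4, LINC01089 beside SETD1B, a histone methyltransferase gene, and LINC00857 beside ANXA11, an annexin gene. The largest of these gaps was that of LINC00857, at 10.9 ± 0.287 TPM, below ANXA11, at 165 ± 8.55 TPM. On the log2(TPM + 1) scale this was a difference of -3.80 ± 0.04. The 4 neighbours that lay above their LINC row had means from 16.6 to 165 TPM. The split depends on the measure. By coverage, LINC00942 was above ERC1 (log2 ratio 2.34), and LINC00476, among the 13 by TPM, was below its neighbour LOC107987103 (-1.12). These 20 rows were chosen for a high level, so a ratio above 0 to the neighbour is a description of the choice as much as of the pair. Over all 117 expressed rows, the nearest protein-coding row averaged 1 TPM or more in 92, and 77 were below their nearest protein-coding row in mean TPM. The nearest protein-coding row was not looked up for the other LINC rows. These counts are therefore not shown to be particular to expressed rows.

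The level of a few rows rests on a value that the deposited coverage, the mean read depth over a row, does not share. In most rows, coverage and FPKM stood in the same ratio. Of the 117 expressed rows, 83 were within 1% of the highest ratio in their library, 13 were below 0.5 of it and 3 below 0.1. The 3 were LINC01184 at 0.0214 of the highest ratio, LINC00473 at 0.0313 and LINC02608 at 0.0937. LINC00473 ranked 1st of the LINC rows by TPM and 59th by coverage, with a coverage of 21.1, 17.5 and 15.4 reads in replicates 1, 2 and 3. LINC01184 ranked 15th by TPM and 221st by coverage. LINC00958 had a coverage of 376 ± 56.6 reads (SD, n = 3), the highest of the LINC rows, and ranked 2nd by TPM. Of the 10 highest rows, 9 were shared by the 2 measures. RefSeq lists 1 transcript for 74 of the 83 rows with a ratio near the highest and for 0 of the 13 rows below 0.5, whose median number of transcripts was 4. Whether the number of transcripts sets the ratio was not tested.

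**Figure D3:**
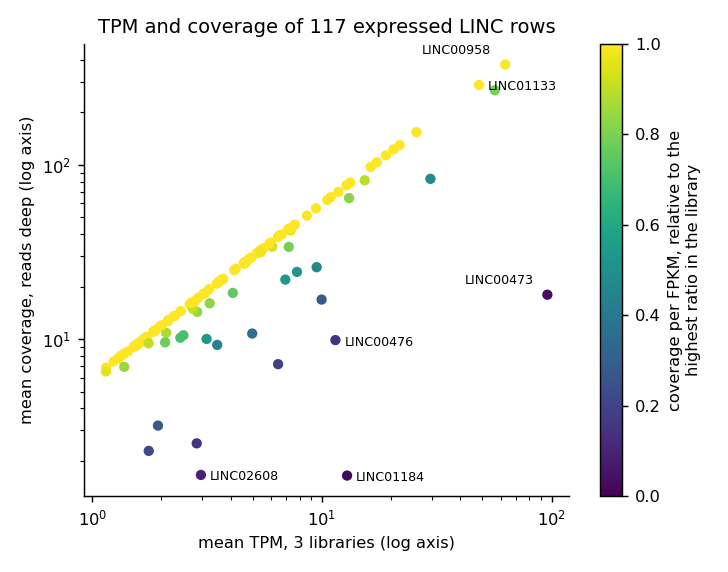
Mean TPM (horizontal, log axis) against mean coverage (vertical, log axis) of the 117 numbered LINC rows with at least 1 TPM in all 3 libraries, coloured by coverage per FPKM relative to the highest ratio in the library. Most points lie on 1 line, and LINC00473, LINC01184, LINC02608 and LINC00476 lie far below it.

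The place of a LINC row relative to other genes moved with whether it was expressed. Distance was counted from each row to the nearest row outside the LINC set on either strand. The median distance was 11086.5 bp for all 1902 LINC rows and 1936 bp for the 117 expressed in all libraries. The share expressed was 8.52% ± 0.127 of the 454 rows that overlap an outside row, 14.9% ± 0.746 of the 134 rows within 1 kb and 12.4% ± 0.631 of the 183 rows at 1 to 5 kb. It was 5.90% ± 0.381 of the 695 rows at 5 to 50 kb and 2.22% ± 0.477 of the 436 rows beyond 50 kb (SD, n = 3 libraries each). Within 5 kb, overlaps included, 10.6%, 10.2% and 10.8% of 771 rows were expressed in replicates 1, 2 and 3. Beyond 5 kb, the shares were 4.86%, 4.42% and 4.16% of 1131 rows. The 2 sets of values did not overlap, and the difference was 6.07 ± 0.469 percentage points in 3 of 3 libraries (exact sign-flip permutation test, p = 0.25).

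The level of the neighbour moved with it as well. Where the nearest outside row was itself expressed, in 418 to 425 rows per library, 16.7%, 15.2% and 16.5% of the LINC rows were expressed. Where it was below 1 TPM, the shares were 4.47%, 4.39% and 4.11%. The difference was 11.8 ± 0.849 percentage points, again in 3 of 3 libraries (exact sign-flip permutation test, p = 0.25). The splits by place and by neighbour were then combined. Beside an expressed neighbour, 31.6% ± 1.56 of the LINC rows within 5 kb were expressed and 7.33% ± 0.681 of those farther away. Beside a neighbour below 1 TPM, 5.34% ± 0.00864 were expressed within 5 kb and 3.59% ± 0.316 farther away. The near-minus-far difference was therefore larger by 22.5 ± 1.104 percentage points beside an expressed neighbour, in 3 of 3 libraries (exact sign-flip permutation test, p = 0.25). Without the LINC rows that overlap an outside row, it was larger by 24.6 ± 0.977 percentage points. Within 1 kb of an expressed neighbour, 37.5% ± 2.50 of 40 rows were expressed, the highest share of the 10 combinations of place and neighbour.

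**Figure D4:**
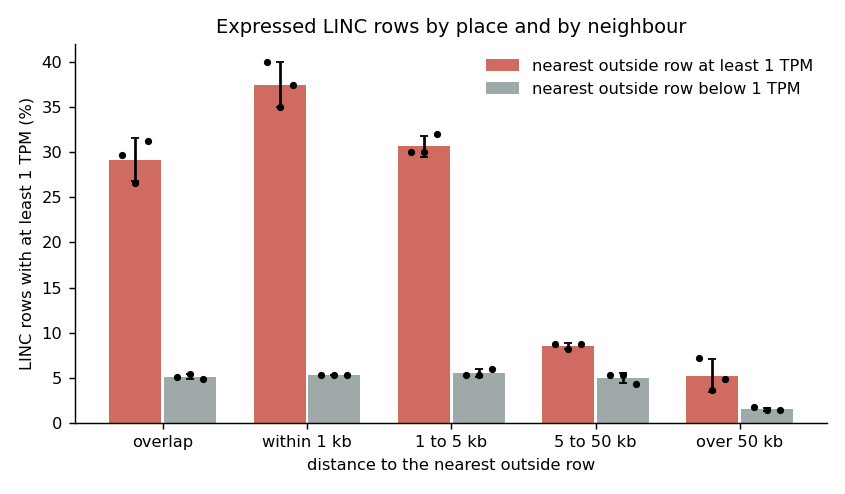
Share of LINC rows with at least 1 TPM (%, vertical axis) by distance to the nearest outside row, for neighbours that averaged 1 TPM or more and for those below it. Bars are means over 3 libraries, error bars the SD and points the libraries; up to 5 kb the bars beside an expressed neighbour stand at 29.2% to 37.5%, and those beside a neighbour below 1 TPM at 5.13% to 5.51%.

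Orientation was examined in the same way. Of the 89 LINC rows whose largest overlap is with an outside row on the same strand, 14.98% ± 0.649 were expressed, against 6.94% ± 0.158 of 365 that overlap on the opposite strand. Reads from the host transcript of a same-strand overlap could be assigned to either row. Among rows without an overlap, 8.11% ± 0.551 of 378 divergent rows, 4.36% ± 0.291 of 344 convergent rows, 7.83% ± 0.269 of 430 rows downstream of their neighbour on the same strand and 4.73% of 296 rows upstream of it, the same share in each library, were expressed. The median distance to the neighbour was 14165.5, 25723, 25846 and 23248.5 bp in these classes, in the same order. Distance was not matched between them.

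A row was called head to head where its start lies within 1 kb of the start of an outside row on the other strand. Pairs that overlap at their starts were included, and whether a pair shares a promoter was not tested. Of 157 head-to-head LINC rows, 18.5%, 15.9% and 18.5% were expressed in replicates 1, 2 and 3, against 6.19%, 5.96% and 5.79% of the other 1745. The difference was 11.6 ± 1.47 percentage points in 3 of 3 libraries (exact sign-flip permutation test, p = 0.25). In all 3 libraries, 23 head-to-head rows were expressed, and 14 of them face a protein-coding gene. All 14 coding partners were expressed, with means from 2.99 to 85.5 TPM. Over all 53 pairs with a coding partner, whether or not the LINC row was expressed, the partner averaged at least 1 TPM in 36. The LINC row was expressed in all libraries in 14 of the 36 pairs whose coding row had a mean of at least 1 TPM (38.9%). It was so in 0 of the 17 pairs whose coding row was below 1 TPM. Over all LINC rows the share was 6.15%, so a count of 0 in 17 pairs is near this background. LINC00685 with GTPBP6 is in both groups of pairs, with GTPBP6 rows at means of 71.6 and 0 TPM.

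In 12 of the 14 pairs the coding gene was higher in all 3 libraries. LINC00476, LINC01547, LINC00894 and LINC01006 overlap their coding partner by 217 to 360 bp. Reads from such an overlap may have been assigned to either row. LINC01547 had 4.25, 3.82 and 4.20 TPM in replicates 1, 2 and 3, while FAM207A, which starts 216 bp away, had 81.4, 87.9 and 87.2 TPM. LINC00337 had 1.72, 1.69 and 1.78 TPM beside ICMT, a carboxyl methyltransferase of prenylated proteins, at 66.5, 60.4 and 58.5 TPM. LINC01089 had 12.6, 13.2 and 13.6 TPM beside SETD1B at 22.3, 21.7 and 20.4 TPM. The values of LINC row and partner did not overlap in these 3 pairs. LINC01786 beside UBE2J2, a ubiquitin-conjugating enzyme, LINC02166 beside CDK10, a cyclin-dependent kinase, and LINC02608 beside PPP2R5A, a regulatory subunit of protein phosphatase 2A, all had a partner between 36.02 and 52.2 TPM on average and a LINC level between 2.08 and 2.97 TPM.

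The other two pairs differed. LINC01184 had 12.9, 14.1 and 11.7 TPM, above SLC12A2, a sodium, potassium and chloride cotransporter gene, at 6.08, 5.18 and 4.86 TPM. The TPM of LINC01184 is the value that its coverage of 1.65 ± 0.213 reads does not share. LINC00476 had 10.5, 11.7 and 12.2 TPM beside ERCC6L2, a helicase gene, at 10.6, 9.17 and 9.03 TPM, and their ranges overlapped. Of the 9 head-to-head rows without a coding partner, LINC00467 had the highest level, and its partner LOC107985258, which starts 87 bp away, had a mean of 0.216 TPM. LINC01836 faces LOC101928450 at 92 bp, with 18.5, 19.9 and 18.5 TPM against 7.55, 8.93 and 8.56 TPM. LINC00847 overlaps its partner HEIH, a long noncoding RNA first described in liver cancer, and had 3.48, 2.38 and 3.58 TPM, while HEIH had 0, 7.58 and 8.41 TPM.

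**Figure D5:**
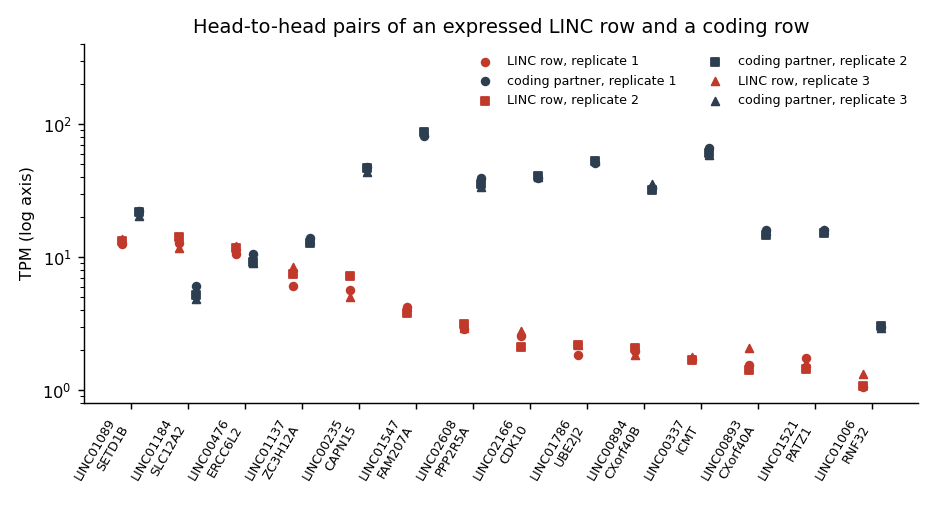
TPM (log axis) of the 14 LINC rows expressed in all libraries that start within 1 kb of a protein-coding gene on the other strand, and of that gene, with 1 symbol per replicate. The coding gene is higher in every library except in the pairs of LINC01184 with SLC12A2 and LINC00476 with ERCC6L2.

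Expressed and other LINC rows also differed in their promoter sequence. A RefSeq promoter was found for 1328 LINC rows, and for 1236 its start lies within 50 bp of the start of the deposited row. These 1236 included 91 of the 117 expressed rows. LINC00958, LINC00467 and LINC00707 were among those without an entry. The CpG ratio, observed CpG over the number that C and G content would give, was used to call a window CpG-rich at 0.6 or more. Of the 219 LINC rows with a CpG-rich promoter, 26.5%, 25.1% and 26.03% were expressed in replicates 1, 2 and 3. Of the 1017 others, the shares were 4.62%, 4.13% and 4.33%. The difference was 21.5 ± 0.467 percentage points in 3 of 3 libraries (exact sign-flip permutation test, p = 0.25).

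The median CpG ratio was 0.713 in the 91 expressed rows and 0.232 in the 1125 rows below 1 TPM in every library, against 0.579 in all 35116 promoters. A CpG-rich window was found in 56.0% of the expressed rows, 14.0% of the rows below 1 TPM and 48.9% of all promoters. GGGCGG, which itself contains a CpG, was present in 62.6%, 14.3% and 45.0% of them, in the same order. TGACG, which also contains a CpG, was present in 33.0%, 17.0% and 24.6%, and the full cAMP response element TGACGTCA in 2.20%, 0.711% and 1.85%. CCAAT was present in 43.96%, 36.4% and 34.6%, and TATAAA in 8.79%, 17.0% and 11.5%. Both strands were searched, and the motifs can overlap each other. CpG content and the neighbour's level were both seen to move with expression, and their shares are therefore given jointly. Within 5 kb of an expressed neighbour, 43.2% ± 4.07 of the rows with a CpG-rich promoter and 24.99% ± 1.99 of the others were expressed. Elsewhere the shares were 20.0% ± 0.369 and 3.19% ± 0.301 (SD, n = 3 libraries each). The sequences printed above show both kinds. LINC01578 and LINC00963 had CpG ratios of 0.928 and 0.960, LINC00473 and LINC01089 had 0.746 and 0.869, and LINC01133, at 48.3 TPM the 4th highest LINC row, had 0.0806.

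Only 4 LINC rows hold a whole microRNA or small nucleolar RNA row on their own strand. Small nucleolar RNAs guide the modification of ribosomal RNA and are cut from introns of host transcripts. LINC02001, now named SNHG30, holds SNORD7 and had 10.7, 11.2 and 13.5 TPM in replicates 1, 2 and 3. LINC00888, now named SNHG33, holds SNORA63D and SNORA63E and had 7.52, 6.997 and 7.41 TPM. Both hosts were expressed in every library. SNORD7 itself had 0.278, 0.171 and 0.415 TPM in these libraries of polyA RNA. The 2 microRNA hosts, LINC00461 with MIR9-2 and LINC01022 with MIR5707, were listed at 0 in every library, as were 73.4% of all LINC rows.

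Among 7 LINC rows known from liver, 0 were expressed in any library and 6 were listed at 0 in all 3. Over all LINC rows, 6.15% were expressed in all libraries and 73.4% were listed at 0, so the counts of so short a list are near this background. LINC01093, LINC01018, LINC00261, LINC00844, LINC02428 and LINC02499 were the 6, and LINC01554 had 0.186 TPM in replicate 2 and 0 in the others. This was the case in the libraries in which 13 of 15 hepatocyte genes were below 1 TPM. A list of 15 LINC RNAs described in cancers had 11 members among the rows, of which 8 were expressed in all libraries, against 6.15% of all LINC rows. The median of the 11 means was 9.48 TPM, and that over all LINC rows was 0. The 8 were LINC00473, LINC00958, LINC00963, LINC00467 and LINC01116, given above, LINC00665 with 7.81, 10.03 and 10.6 TPM, LINC00346 with 7.47, 7.24 and 6.99 TPM, and LINC00662 with 5.55, 4.73 and 4.22 TPM. LINC01134 stayed between 0.128 and 0.155 TPM, LINC00460 had 0.0475 TPM in replicate 1 alone, and LINC00511 had 0.0293 TPM in replicate 2 alone. LINC00152, LINC00176, LINC00205 and LINC01296 were not found as rows under these names. Both lists were written with earlier results of these libraries known, and their counts describe the lists only.

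The spread between replicates was counted over the LINC rows with a mean of 1 TPM or more. A range of log2(TPM + 1) above 1 over the 3 libraries was found in 0 of the 130 LINC rows whose mean reached 1 TPM (0%). The share was 1.26% over all rows with such a mean, and 2.4% of 250 antisense rows, so the LINC count is near the share over all rows. The pseudocount of 1 narrows the range of rows near 1 TPM, and with a pseudocount of 0.1 the count was 2. The median coefficient of variation was 12.98% in the 63 LINC rows at 1 to 3 TPM, against 12.4% in outside rows. At 3 to 10 TPM it was 8.38% against 7.72%, and in the 20 LINC rows at 10 to 100 TPM it was 8.30% against 5.16%. Antisense rows at 10 to 100 TPM had 6.24%. Levels within these ranges were not matched between the classes, so the values do not show that LINC rows vary more at a like level. Among the rows with a mean of at least 1 TPM, the largest range was that of LINC02585, with 1.43, 0.767 and 1.96 TPM, a range of 0.75 on the log2 scale. LINC00853 had 1.19, 0.531 and 1.45 TPM, and LINC02482 had 2.56, 1.54 and 1.47 TPM. LINC02104, at 7.12, 7.54 and 4.93 TPM, and LINC01637, at 1.37, 1.19 and 2.14 TPM, completed the 5 widest ranges among these rows. Replicate 2 was lowest in 3 of these 5 rows and highest in LINC02104.

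LINC numbers were mostly given in the order in which names were assigned, and the share expressed differed along them. Of the 449 rows numbered below 1000, 12.03%, 11.1% and 10.7% were expressed in replicates 1, 2 and 3, against 5.71%, 5.44% and 5.64% of the 1453 others. The difference was 5.69 ± 0.634 percentage points in 3 of 3 libraries (exact sign-flip permutation test, p = 0.25). The share was 9.38% ± 0.521 below LINC00500, 12.7% ± 0.810 from there to LINC00999, 9.71% ± 0.317 from LINC01000 to LINC01499, 4.98% ± 0.246 from LINC01500 to LINC01999, 3.01% ± 0.237 from LINC02000 to LINC02499 and 6.02% ± 0.752 above. The median distance to an outside row moved with it, from 5931 bp in the block from LINC00500 to 18476 bp in the block from LINC02000. The part of distance in the difference between numbers was not tested.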

How the data were processed

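RNA was sequenced in 3 libraries of 1 group. Paired-end reads were trimmed and checked by the authors with Trim Galore 0.6.2 and FastQC 0.11.8 and mapped to GRCh38 with STAR 2.6.1a; the submitters' processing notes also name StringTie. The annotation and strand setting are not given in the sources used here. The authors deposited 1 table per library with the coverage (a signal not scaled for depth), FPKM and TPM of each row. Pooling was not stated.

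Rows were joined by gene and coordinates, which kept 43389 rows and left out 6. TPM was used as deposited, with a pseudocount of 1 on the log2 scale. Differences were taken within a library and given as mean ± SD, and a sign-flip permutation test (exact, two-sided) was applied. The members and lists were chosen with earlier results of these data known; the head-to-head, CpG and neighbour-by-distance comparisons were added after the data were seen. Named rows were the 20 highest, the 5 widest ranges, both lists, small RNA hosts and expressed head-to-head rows; their neighbours are named with them, and LINC00461, LINC01022 and the rows at 0 in some library were added after their values were seen. Names were matched to RefSeq GRCh38.p14 by symbol for 1813 rows and by synonym for 84. Nearest rows, ranges and the test were tested on simulated data. Alternatives were other limits, units, scalings, pseudocounts, distance, number and CpG limits and leaving out each replicate. Python 3.11.15, numpy 2.4.6, pandas 2.3.3 and matplotlib 3.10.9 were used.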

Additional observations from a re-analysis of the deposited data

How the results depend on the processing

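No paired analysis was possible because the libraries form 1 condition. The 8 differences between shares kept their direction in all 81 values under an alternative, and none could pass 0.05. They shrank most at a limit of 10 TPM, where the near-minus-far difference was 0.906 and the head-to-head difference 2.27 percentage points. The number of LINC rows expressed in all libraries was 250 at 0.1 TPM, 295 for any value above 0, 19 at 10 TPM and 80 at 1 FPKM, and 119 to 123 with each replicate left out. The number with a range above 1 was 2 with a pseudocount of 0.1, 5 with a minimum mean of 0.1 TPM or no minimum, 1 with scaling without mitochondrial rows, and 0 to 1 with each replicate left out, the 1 being found without replicate 2 and without replicate 3. The summed level was 1219 TPM without mitochondrial rows, which took 19.9% to 20.2% of TPM, 464 FPKM, 4637 as coverage, 776 TPM with FPKM recomputed from coverage, and 961 to 985 TPM with each replicate left out. With coverage in place of TPM, the log2 ratio of LINC00942 to ERC1 turned from -0.33 to 2.34 and that of LINC00476 to LOC107987103 from 1.37 to -1.12; the cause was not tested. Depth is unknown, so a row listed at 0 is not shown to be absent.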

Other observations

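The shares of expressed LINC rows differed between chromosomes. In all 3 libraries, 11 of 34 LINC rows on chromosome 7 (32.4%), 7 of 32 on chromosome 22 (21.9%) and 7 of 33 on the X chromosome (21.2%) were expressed. On chromosome 8, 0 of 48 were expressed, on chromosome 13, 2 of 148 (1.35%), and on chromosome 4, 2 of 135 (1.48%). Among rows outside the LINC set the same shares lay closer together, at 33.2% on chromosome 7, 37.998% on chromosome 22, 32.6% on the X chromosome, 29.5% on chromosome 8, 27.3% on chromosome 13 and 27.4% on chromosome 4. On the 7 chromosomes with 100 LINC rows or more, 50 of 1038 were expressed (4.82%), against 38 of 303 (12.5%) on the 8 with fewer than 50, the Y chromosome left out of both. The chromosomes were picked out after their values were seen.

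RefSeq now gives 84 of the LINC rows another symbol, and 15.9% ± 0.687 (SD, n = 3 libraries) of these were expressed, against 6.53% ± 0.272 of the 1813 rows that kept their name. The median distance to an outside row was 264.5 bp in the renamed rows and 11930 bp in the others. Of the renamed rows, 27 carry a symbol ending in -DT, given to divergent transcripts of a named gene, and 6 of these were expressed in all libraries. RefSeq now lists 8 of the LINC rows as protein-coding, and no row expressed in all libraries is among them. Over all LINC rows 6.15% were expressed in all libraries, so this count is near that background.

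Listing at 0 in a library and at least 1 TPM in another was seen in 5 LINC rows. LINC00115 had 2.77 TPM in replicate 1 and 0 in the others, and LINC01481 had 1.41 TPM in replicate 3 and 0 in the others. LINC01465, which lies 251 bp from MIRLET7I, had 0, 1.18 and 1.05 TPM in replicates 1, 2 and 3. LINC00540 had 1.07, 0 and 0.727 TPM, and LINC01119 had 1.18, 0 and 0.544 TPM. An exact 0 in such tables can be a failed estimate.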
